A study of Bos taurus with 16 samples.

Results

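The genes described here move zinc, iron and copper into, through and out of cells, store these metals, or sense them. They were chosen by symbol: 20 names of iron, copper and metallothionein genes, and every gene whose symbol is SLC30A or SLC39A with a number. No probe set carried the symbol MT1E, which RefSeq lists as another name of 3 genes, among them MT1A, given with the further genes below. Of the 20 names, the other 19 were measured. With 9 SLC30A and 14 SLC39A genes this gave 42 of the 18444 genes on the array. They were picked by symbol and not by value, but with earlier results of these data known. Gene SLC39A8 had a pair of probe sets and the other 41 genes had 1 each, so 43 probe sets were read and the brighter one stood for SLC39A8.

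The biopsies came from the mammary gland of 16 Parda de Montaña heifers, a beef cattle breed of the Spanish mountains, and were taken at the end of the first lactation. The 8 CON heifers had a starter concentrate beside their dam's milk from birth to 6 months of age, and the 8 NOCON heifers had only the milk of their dams over the same months. In both groups the calves suckled for 30 min, and from 6 to 15 months the study fed rations of 67% forage with 33% concentrate or 87% forage with 13% concentrate. The labels do not give the later ration of each heifer, so its part in any value below was not tested. The feed differed long before the biopsy, and each heifer gave 1 array.

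Cells hold free iron, zinc and copper at very low levels. Iron arrives bound to transferrin, is taken up through the transferrin receptor, and is kept in ferritin or exported through ferroportin. Iron regulatory proteins bind messenger RNAs of this pathway when iron is scarce, which protects the receptor's RNA and holds back the translation of ferritin. Zinc is carried out of the cytosol by the SLC30A family and into it by the SLC39A family, and copper is passed from its importer over a chaperone to copper-pumping ATPases. In lactation the mammary epithelium exports all of these metals into milk, and in women and mice inherited defects of SLC30A2 or SLC30A4 leave milk short of zinc.

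Levels are log2 expression values of 1 probe set per gene, and every difference is CON minus NOCON on the log2 scale. Probe sets differ in how well they bind, so the level of one gene is not set against that of another. All 8 luminal epithelium markers were measured, with summed linear levels of 2455 to 4364 in CON and 3519 to 4516 in NOCON biopsies and 1 of the 8 below the array medians. ELF5, with a mean log2 level of 11.30, weighs most in these sums. The mean was higher in CON for 0 of the 8 luminal markers, against 48.9% of all genes. The endothelial sum ran from 257 to 1184 in CON and from 389 to 1181 in NOCON biopsies, and no marker of the 11 cell type lists passed the test. In a biopsy, fewer cells of a type and less RNA per cell cannot be told apart. A set of 5 arrays correlated less well with the rest: CON 2, CON 6, CON 7, NOCON 1 and NOCON 5 had median correlations from 0.866 (CON 7) to 0.974, against 0.986 to 0.989 on the other 11. CON 7 held the lowest sum of luminal, myoepithelial, fibroblast and endothelial markers and the highest sum of neutrophil and erythrocyte markers. The differences below are therefore also given for the 5 CON and 6 NOCON arrays that remain without these 5.

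None of the 42 genes differed between CON and NOCON at an adjusted p under 0.05 (limma, adjusted by Benjamini-Hochberg across the 26773 probe sets). Of all probe sets 0.0598% passed, and of all genes 0.0163%, so a count of 0 of 42 is what those shares give. The smallest adjusted p was 0.519, for the ferritin heavy chain FTH1. By the exact permutation test the count was also 0, but the smallest p that test can give is 1.55e-04. With adjustment over 26773 probe sets it could hardly call any gene, so its count of 0 adds nothing. At an unadjusted p under 0.05, FTH1 alone passed, with a higher mean in CON. It is 2.38% of the 42 genes, against 7.93% of all genes at that p, 2.65% with a higher and 5.28% with a lower mean in CON. The mean was higher in CON for 25 genes and lower for 17, with 48.9% of all genes higher in CON. The median difference was 0.02 for these genes and -0.0037 for all genes. For all 42 genes the ranges of the CON and NOCON biopsies overlapped, while 0.146% of all genes had ranges that did not.

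Without the 5 low-correlation arrays, again none of the 42 genes passed at the adjusted threshold, against 0.038% of all genes, and the smallest adjusted p was 0.262. At an unadjusted p under 0.05 the count was then 8 of 42, or 19.0%, against 8.37% of all genes. These 8 were FTH1, ATP7A, SLC39A9, SLC31A1, SLC30A6, SLC30A4, ACO1 and SLC11A2, and all had the higher mean in CON, a direction that 3.77% of all genes shared at that threshold. With single arrays left out, the count was 3 of 42, or 7.14%, without CON 7 (8.52% of all genes) or without NOCON 2 (7.54% of all genes). It was 2 of 42, or 4.76%, without NOCON 1 (8.97% of all genes), NOCON 5 (5.76%) or NOCON 6 (6.26%). In each of these fits the share of the 42 genes lay below that of all genes. The sign of the difference turned on leaving out some single array for 18 of the 42 genes and was kept for 24.

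**Figure D1:**
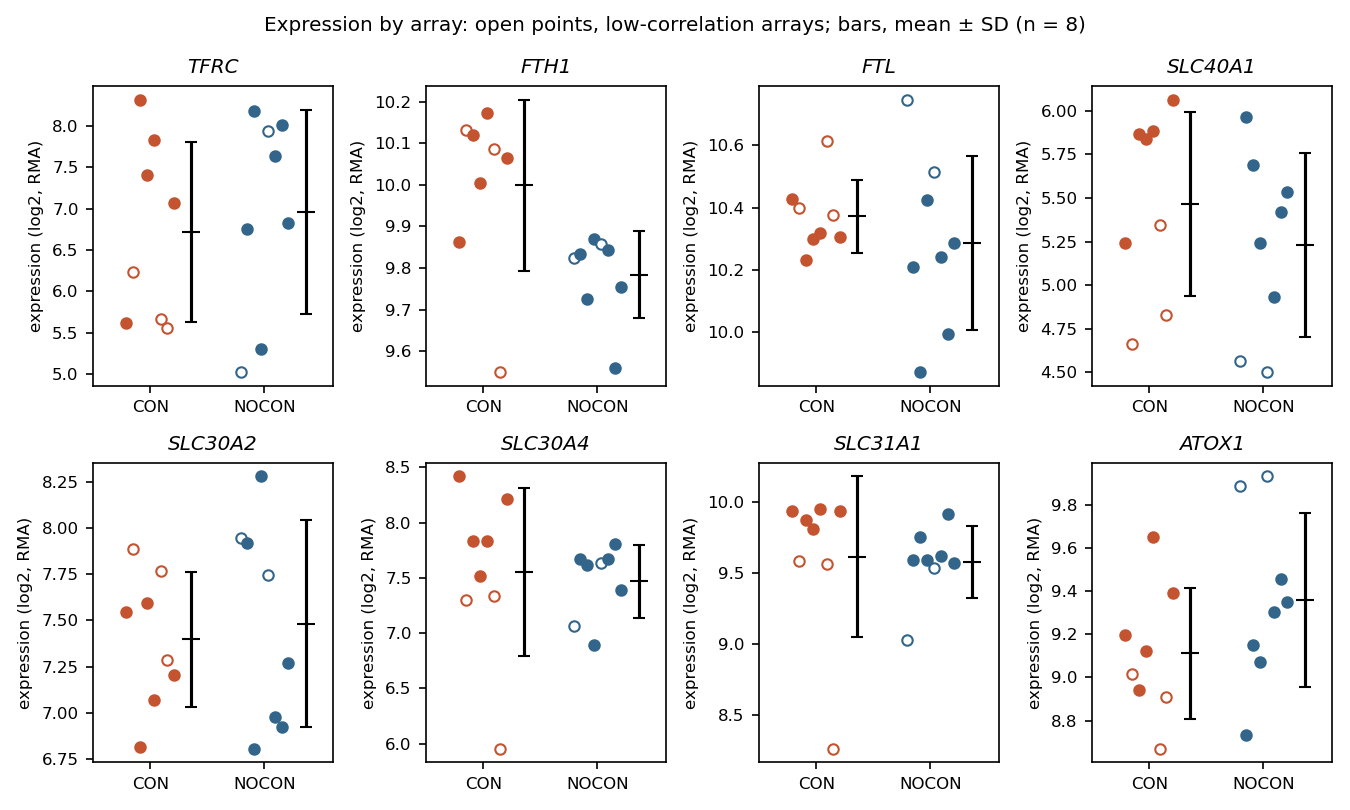
Log2 expression of TFRC, FTH1, FTL, SLC40A1, SLC30A2, SLC30A4, SLC31A1 and ATOX1 in each biopsy, 1 panel per gene with its own vertical scale and CON left of NOCON. Points are arrays, open for the low-correlation ones, and bars are mean ± SD (n = 8 each). The groups overlap in every panel, and TFRC has the widest spread, from 5.02 to 8.32.

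Among genes of iron storage, export and heme breakdown, 5 of 6 had a higher mean in CON, against 48.9% of all genes. The count was 3 of 6 with each array centred on its median, and FTH1 stood nearest to a difference. FTH1, whose product oxidises iron as it enters the ferritin shell, had log2 levels of 9.55 (lowest), 10.08 (median) and 10.17 (highest) in CON, against 9.56, 9.83 and 9.87 in NOCON. In 6 of the 8 CON biopsies it lay above every NOCON biopsy, but the CON 7 biopsy lay below all of them. The means were 10.00 ± 0.21 in CON and 9.78 ± 0.10 in NOCON (n = 8 each, SD), a difference of 0.22 ± 0.08 (SE) or 1.16-fold, with an unadjusted p of 0.0179 and an adjusted p of 0.519 by limma. The exact permutation test over 12870 regroupings gave 0.0225 unadjusted. Leaving out the 5 low-correlation arrays gave FTH1 a difference of 0.28 (adjusted p = 0.262), and without CON 7 alone it was also 0.28 (adjusted p = 0.108). Leaving out each array in turn moved it between 0.18 and 0.28.

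FTL, the ferritin light chain, which helps iron form a mineral core, had levels of 10.23, 10.35 and 10.61 (lowest, median, highest) in CON and 9.87, 10.27 and 10.75 in NOCON. The CON range lay inside the NOCON range, and the difference was 0.09 ± 0.10 (SE; adjusted p = 0.787 by limma). The FTL difference was 0.15 without the 5 arrays, and with single arrays left out it ran from 0.03 (without NOCON 3) to 0.15 (without NOCON 1). The ferritin chains had a Pearson r of 0.309 and a Spearman rho of 0.294 over the 16 biopsies (permutation p = 0.247 and 0.270, adjusted over 23 pairs 0.378 and 0.435). SLC40A1, ferroportin, the iron exporter, had levels of 4.66, 5.59 and 6.07 in CON and 4.50, 5.33 and 5.97 in NOCON. Its difference of 0.24 ± 0.25 (SE; adjusted p = 0.751) with all arrays was the largest positive one among the 42 genes and no larger than its standard error. Without the 5 low-correlation arrays the SLC40A1 difference was 0.32 ± 0.18 (SE; adjusted p = 0.701 by limma). CP, ceruloplasmin, the copper enzyme that oxidises exported iron, was dim, with levels of 3.49, 3.66 and 3.82 (lowest, median, highest) in CON and 3.62, 3.64 and 3.72 in NOCON. The CON biopsies spread wider, and the means were 0.0019 ± 0.05 apart (SE; adjusted p = 0.991). Of the heme oxygenases, which break heme down and free its iron, HMOX1 differed by 0.02 and HMOX2 by -0.07 (adjusted p = 0.935 and 0.857), and without the 5 arrays by -0.02 and 0.06.

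TFRC, the transferrin receptor, was the most variable of the 42 genes, and this spread lay within the feeding groups. Its levels were 5.56 (lowest), 6.65 (median) and 8.32 (highest) in CON, against 5.02, 7.23 and 8.18 in NOCON. From NOCON 1, the lowest biopsy, to CON 3, the highest, it spanned 3.29 log2 units, or 9.79-fold. Its SD over the 16 biopsies was 1.13, which ranked 22 of 18444 genes, and 99.6% of the 1656 genes within 0.5 log2 units of its mean had a smaller SD. Without the 5 low-correlation arrays the span was still 3.01. The means of 6.71 ± 1.09 in CON and 6.96 ± 1.23 in NOCON (n = 8 each, SD) differed by -0.25 ± 0.54 (SE; adjusted p = 0.886 by limma), and the difference was 0.13 without the low-correlation arrays. The next largest SDs among the 42 genes were 0.618 for SLC30A5, 0.566 for SLC30A4, 0.537 for SLC39A14, 0.528 for SLC39A9 and 0.524 for SLC40A1. For the first 4 of these the lowest biopsy was CON 7, and for SLC40A1 it was NOCON 5.

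The other genes of iron uptake and its control had mean differences of at most 0.21 in size, and none passed the adjusted test. SLC11A2, which carries iron across membranes, had levels of 6.45, 6.98 and 7.32 (lowest, median, highest) in CON and 6.36, 6.73 and 7.19 in NOCON. That difference was 0.21 ± 0.13 (SE; adjusted p = 0.625), with 6 of 8 CON biopsies above the NOCON median, and it was 0.27 without the 5 low-correlation arrays (with an adjusted p of 0.537). ACO1, a cytosolic aconitase that becomes an iron regulatory protein when it loses its iron-sulfur cluster, ran from 7.94 to 9.94 in CON and from 8.70 to 9.59 in NOCON. Its lowest values were CON 7 and NOCON 1, and the difference was 0.05 with all arrays and 0.23 without the 5 (adjusted p = 0.947 and 0.526). IREB2, the other iron regulatory protein, differed by -0.11, SLC11A1, the metal transporter of phagocyte vesicles, by 0.09, and TF, transferrin, by 0.09. Without the 5 arrays the directions of IREB2 (0.06) and TF (-0.02) turned. TF lay below the array medians, with 3.63 ± 0.20 in CON and 3.55 ± 0.06 in NOCON (n = 8 each, SD).

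Copper genes showed 2 higher and 3 lower means in CON, and 3 higher and 2 lower without the 5 arrays. ATOX1, the chaperone that hands copper to the copper-pumping ATPases, had levels of 8.67, 9.07 and 9.65 (lowest, median, highest) in CON and 8.73, 9.33 and 9.93 in NOCON. Its difference of -0.25 ± 0.17 (SE; adjusted p = 0.637) was the most negative of the 42 genes, but it was 0.08 without the low-correlation arrays, so its direction turned. SLC31A2, a copper transporter of internal membranes, had 9.08, 9.91 and 10.28 in CON and 9.80, 9.99 and 10.36 in NOCON, a difference of -0.19 ± 0.14 (SE; adjusted p = 0.667). The SLC31A2 difference was -0.08 without CON 7, its lowest biopsy, and -0.14 without the 5 arrays. SLC31A1, the main copper importer of the cell surface, differed by 0.04 with all arrays and by 0.23 without the 5 (adjusted p = 0.958 and 0.330). ATP7A and ATP7B are the ATPases that load copper into secreted enzymes and export it, and ATP7A differed by 0.18 (adjusted p = 0.696). ATP7B, which is needed for copper in the milk of mice, had 4.07, 4.26 and 4.63 in CON and 4.13, 4.27 and 4.70 in NOCON, a difference of -0.05 ± 0.09 (SE; adjusted p = 0.866). Its highest values were CON 7 and NOCON 1, and without NOCON 1 the direction of ATP7B turned, to 0.01. Leaving out the 5 arrays, the ATP7A difference was 0.33 (adjusted p = 0.316).

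**Figure D2:**
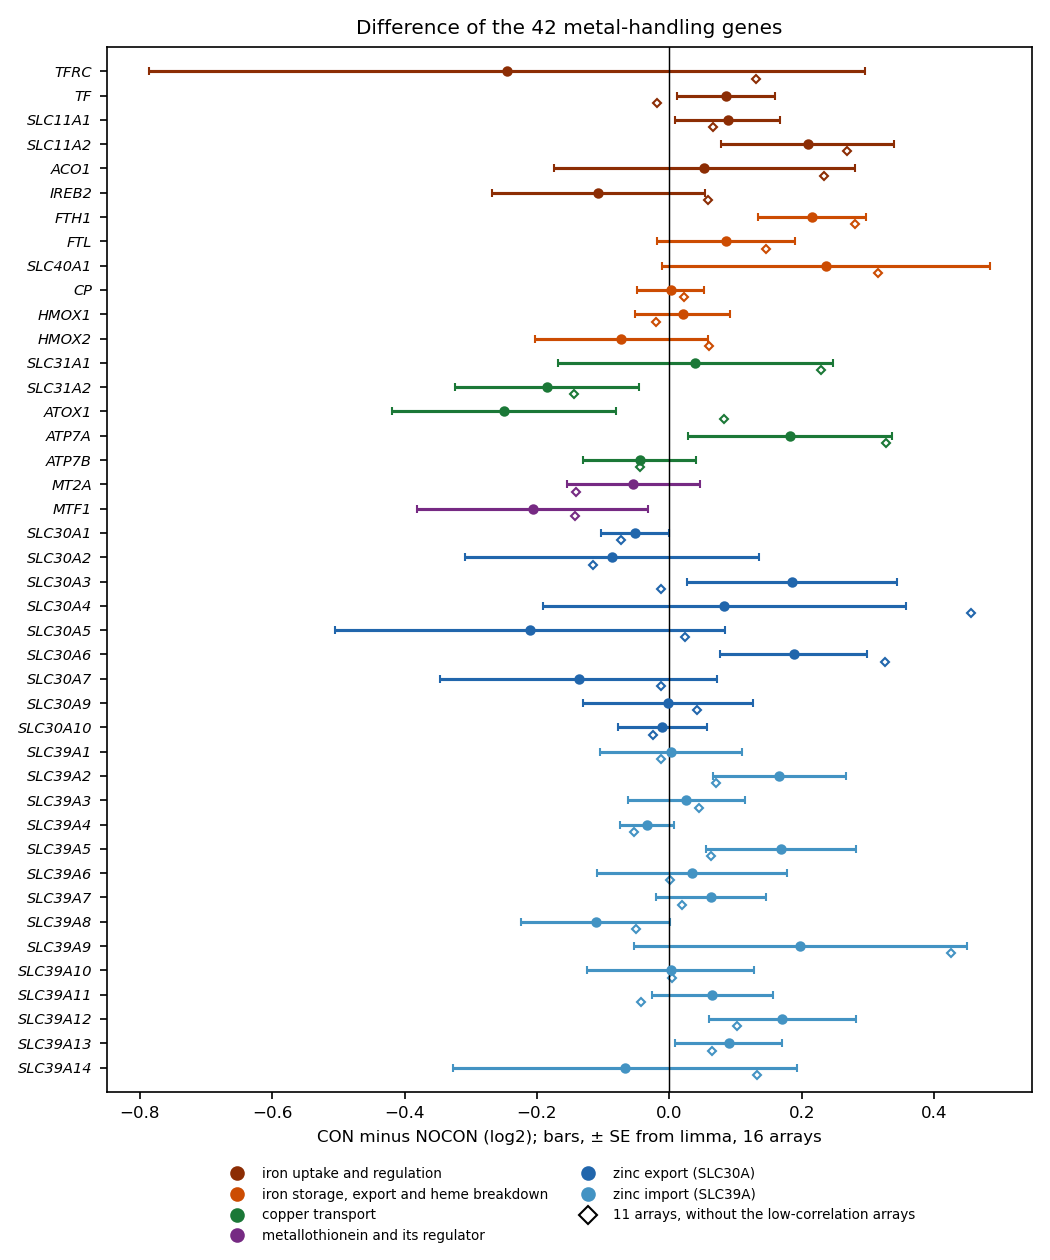
Difference between CON and NOCON for each of the 42 genes on the log2 scale, with bars of ± SE over 16 arrays and open diamonds for the 11 arrays that remain without the low-correlation ones. Differences run from -0.25 (ATOX1) to 0.24 (SLC40A1), and the diamonds of SLC30A4 and SLC39A9 lie furthest to the right at 0.46 and 0.42.

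Zinc exporters of the SLC30A family had higher means in CON for 3 genes and lower for 6, with 48.9% of all genes higher in CON. The median difference was -0.01. SLC30A2, which loads zinc into secretory vesicles, had levels of 6.82, 7.42 and 7.89 (lowest, median, highest) in CON and 6.81, 7.51 and 8.28 in NOCON. The groups overlapped over nearly the whole range, and the difference was -0.09 ± 0.22 (SE; adjusted p = 0.905 by limma), or 0.02 after quantile normalization. SLC30A4, which also supplies zinc to milk in mice, had 5.95, 7.67 and 8.42 in CON and 6.89, 7.63 and 7.81 in NOCON. Its CON range was the wider one at both ends, 4 CON biopsies lay above every NOCON biopsy, and CON 7 lay below all of them. The SLC30A4 difference was 0.08 ± 0.27 (SE) with all arrays and 0.46 without the 5 (adjusted p = 0.929 and 0.520). SLC30A5 and SLC30A6 pair to carry zinc into the Golgi. SLC30A5 had levels of 6.32, 8.22 and 8.47 in CON and 7.05, 8.23 and 8.54 in NOCON, with the lowest values in CON 7 and NOCON 1, and differed by -0.21 ± 0.29 (SE; adjusted p = 0.813). SLC30A6 had 6.07, 6.28 and 6.74 in CON and 5.86, 6.09 and 6.502 in NOCON, with 6 of 8 CON biopsies above the NOCON median, and differed by 0.19 ± 0.11 (SE; adjusted p = 0.615). Without the 5 arrays SLC30A5 differed by 0.02 and SLC30A6 by 0.33 (adjusted p = 0.970 and 0.460). SLC30A7, another Golgi zinc carrier, differed by -0.14, and SLC30A3, known from synaptic vesicles, by 0.19, against -0.01 for both without the 5 arrays. The dim SLC30A1, which exports zinc over the cell surface, had 3.69, 3.83 and 3.92 in CON and 3.72, 3.88 and 3.97 in NOCON, a difference of -0.05 ± 0.05 (SE; adjusted p = 0.735). SLC30A10, known for manganese efflux, differed by -0.01, and SLC30A9 by -0.0015.

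Zinc importers of the SLC39A family had higher means in CON for 11 of 14 genes, against 48.9% of all genes. The median difference was 0.05, and none passed the adjusted test. The count was 9 with each array centred on its median, 10 after quantile normalization and 10 without the low-correlation arrays. Of all 18444 genes, 7455, 8146 and 8826 had the higher mean in CON in these settings, in the order named. Whether the family leans toward CON was not tested. SLC39A2, a zinc importer known from skin, had levels of 4.02, 4.18 and 4.94 (lowest, median, highest) in CON and 4.06, 4.09 and 4.22 in NOCON. Its highest value was CON 7, and the difference was 0.17 ± 0.10 (SE; adjusted p = 0.616) with all arrays and 0.07 without the 5. SLC39A5, an importer of the basolateral membrane, had 3.999, 4.13 and 4.95 in CON and 3.88, 4.04 and 4.26 in NOCON. It also peaked in CON 7, and its difference was 0.17 ± 0.11 (SE; adjusted p = 0.636) with all arrays and 0.06 without the 5. SLC39A12, known from the brain, was dim, with 3.42, 3.73 and 4.19 in CON and 3.46, 3.499 and 4.06 in NOCON, and differed by 0.17 ± 0.11 (SE; adjusted p = 0.629). SLC39A9, of the Golgi, had 6.17, 7.72 and 8.24 in CON and 6.73, 7.44 and 7.83 in NOCON, a difference of 0.20 ± 0.25 (SE; adjusted p = 0.795). Without the 5 arrays, CON 7 among them, the SLC39A9 difference was 0.42 (adjusted p = 0.324).

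SLC39A8 and SLC39A14, importers that also carry manganese and, for SLC39A14, iron, differed by -0.11 and -0.07 (adjusted p = 0.742 and 0.940), and without the 5 arrays by -0.05 and 0.13. SLC39A14 had levels of 5.31, 6.53 and 7.51 in CON and 5.97, 6.61 and 7.06 in NOCON, so the CON range enclosed the NOCON range. The dimmer probe set of SLC39A8 had 7.87 ± 0.23 in CON and 8.11 ± 0.27 in NOCON (n = 8 each, SD), a difference of -0.25 ± 0.12 (SE; unadjusted p = 0.0579, adjusted p = 0.579). The SLC39A8 probe sets had the same direction and correlated over the 16 biopsies at r = 0.85. SLC39A7, which releases zinc from the endoplasmic reticulum, had 8.13 ± 0.07 in CON and 8.07 ± 0.22 in NOCON (n = 8 each, SD). The wider NOCON spread rested on NOCON 1, its lowest, and NOCON 5, its highest, and the SDs without the 5 arrays were 0.08 in both groups. The remaining SLC39A genes differed by -0.03 (SLC39A4, the importer of the intestine) to 0.09 (SLC39A13, of the early secretory pathway).

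MT2A, a metallothionein, which buffers zinc and copper by binding them with its cysteines, had levels of 3.81, 3.90 and 4.47 (lowest, median, highest) in CON and 3.74, 4.01 and 4.32 in NOCON. The MT2A probe set was dim, below the array medians, and differed by -0.05 ± 0.10 (SE; adjusted p = 0.862), and by -0.14 without the 5 arrays (adjusted p = 0.730). MTF1, the zinc-sensing factor that switches on metallothionein genes, had 5.09 ± 0.35 in CON and 5.30 ± 0.38 in NOCON (n = 8 each, SD; adjusted p = 0.695). In all, 11 of the 42 genes lay below the mean of the array medians: TF, CP, ATP7B, MT2A, SLC30A1, SLC30A10, SLC39A2, SLC39A4, SLC39A5, SLC39A11 and SLC39A12. No detection call came with the values, so whether these 11 were above background was not tested.

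**Figure D3:**
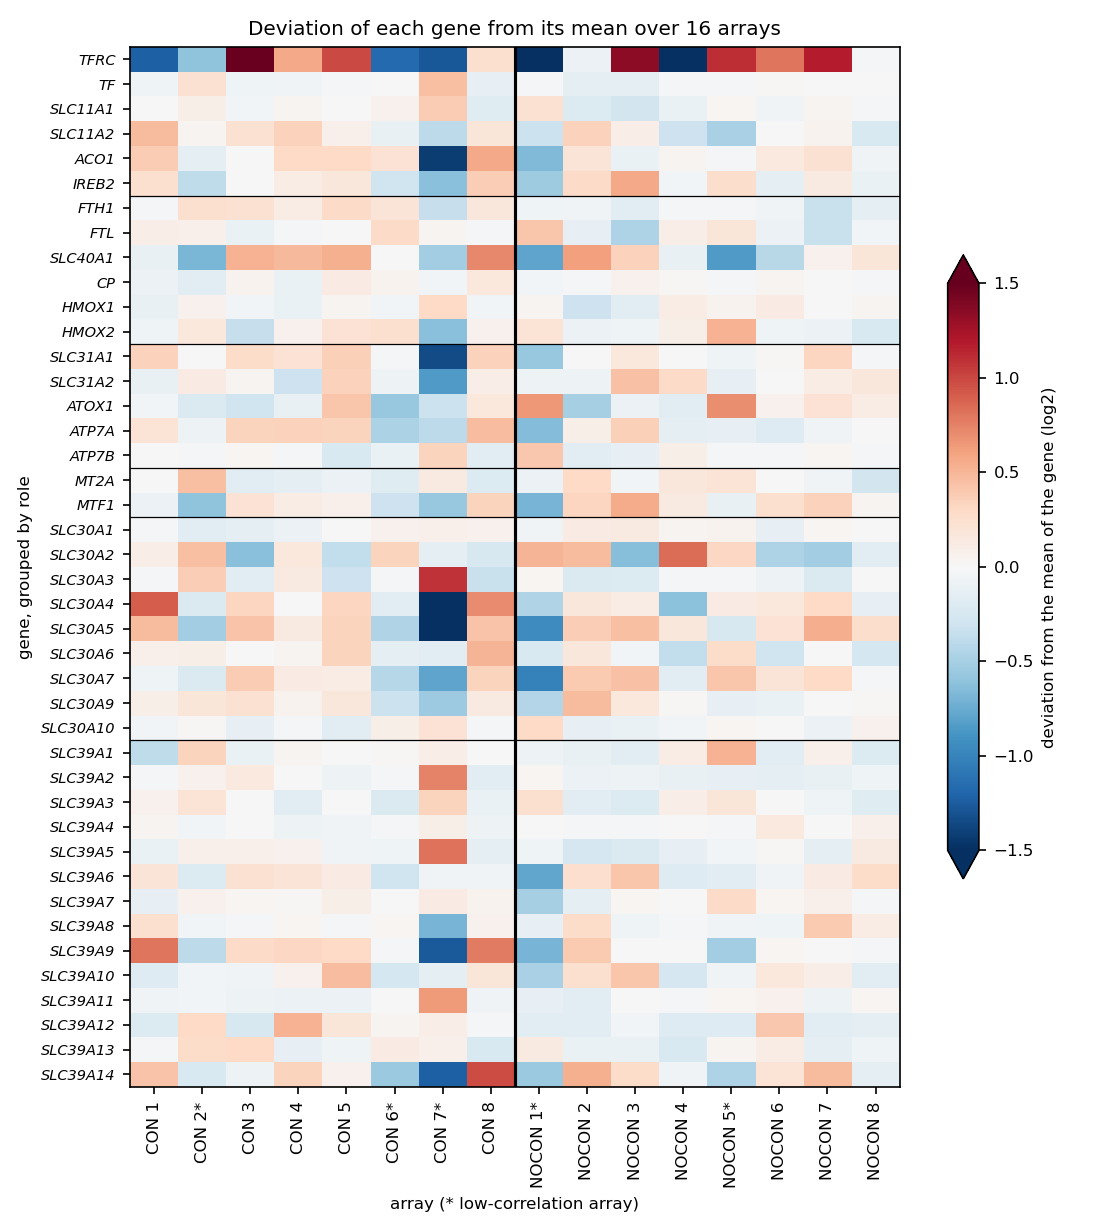
Deviation of each of the 42 genes from its own mean in each biopsy, in log2 units, with CON left of NOCON, colours limited to 1.5 in either direction and stars at the low-correlation arrays. CON 7 holds the lowest value of 12 genes and the highest of 8, and NOCON 1 the lowest of 7.

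CON 7 gave the lowest of the 16 values for 12 of the 42 genes and the highest for 8, against 25.4% and 31.8% of all genes for the same array. NOCON 1 gave the lowest for 7 and the highest for 3, against 10.0% and 9.33% of all genes. Together the 5 low-correlation arrays held the lowest value for 25 genes, or 59.5%, against 53.3% of all genes, and the highest for 16, with 59.4% of all genes highest on one of these arrays. Among the 12 lows of CON 7, the deepest below the gene's mean were those of ACO1, SLC31A1, SLC30A4, SLC30A5 and SLC39A9, and its highs included SLC30A3 and the dim SLC39A2, SLC39A5, SLC39A11 and TF. The interquartile range of all values was 1.49 on CON 7 and 1.68 on NOCON 1, against 1.96 to 2.15 on the 11 remaining arrays. The median of CON 7 was 4.57, against 4.25 to 4.33 on those 11. The part of this narrower scale in the lows and highs was not tested.

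Co-variation was tested in 23 pairs joined by a known role, such as partner subunits, sensor and target, or importer and exporter. The pairs too were chosen with earlier results of these data known. With a permutation test over the 16 biopsies and adjustment over the 23 pairs, 9 passed an adjusted p of 0.05, 7 of them positive, and 11 had an unadjusted p under 0.05. How many pairs of other genes would pass was not tested, so the count is not a trait of these pairs. With group means removed, the median size of r was 0.407 over all pairs of 1000 genes spaced through the measured genes. The Golgi zinc carriers SLC30A5 and SLC30A7 were the closest, with a Pearson r of 0.826 (adjusted p = 0.00943) and a Spearman rho of 0.632 (adjusted p = 0.0817). The metal importers SLC39A8 and SLC39A14 had r = 0.740 and rho = 0.644 (adjusted p = 0.0150 and 0.0817). SLC40A1 and HMOX1 ran in opposite directions, with r = -0.601 and rho = -0.641 (adjusted p = 0.0327 and 0.0817). TFRC and IREB2 had r = 0.619 and rho = 0.541 (adjusted p = 0.0327 and 0.107). These 4 kept an r of at least 0.5 in size without the 2 biopsies farthest from the median of the first gene, at 0.589, 0.507, -0.656 and 0.560 in the order named. Over the 11 arrays without the low-correlation ones, r was 0.518, 0.407, -0.547 and 0.148 in the same order.

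The other 5 pairs that passed were SLC31A1 with SLC31A2 (r = 0.709, adjusted p = 0.0355), ACO1 with IREB2 (r = 0.692, adjusted p = 0.0150), SLC11A1 with HMOX1 (r = 0.692, adjusted p = 0.0212), SLC39A6 with SLC39A10 (r = 0.651, adjusted p = 0.0219) and ATP7A with ATP7B (r = -0.685, adjusted p = 0.0174). Without the 2 farthest biopsies all 5 had an r under 0.5 in size, from 0.108 for SLC31A1 with SLC31A2 to -0.472 for ATP7A with ATP7B. By Spearman's rho none of the 23 passed the adjusted threshold. Without the 5 low-correlation arrays none passed either, and the lowest adjusted p was 0.468 and the lowest unadjusted p 0.0747. The number of pairs that passed was 1 without CON 7, 3 without NOCON 1 and 4 without NOCON 3.

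**Figure D4:**
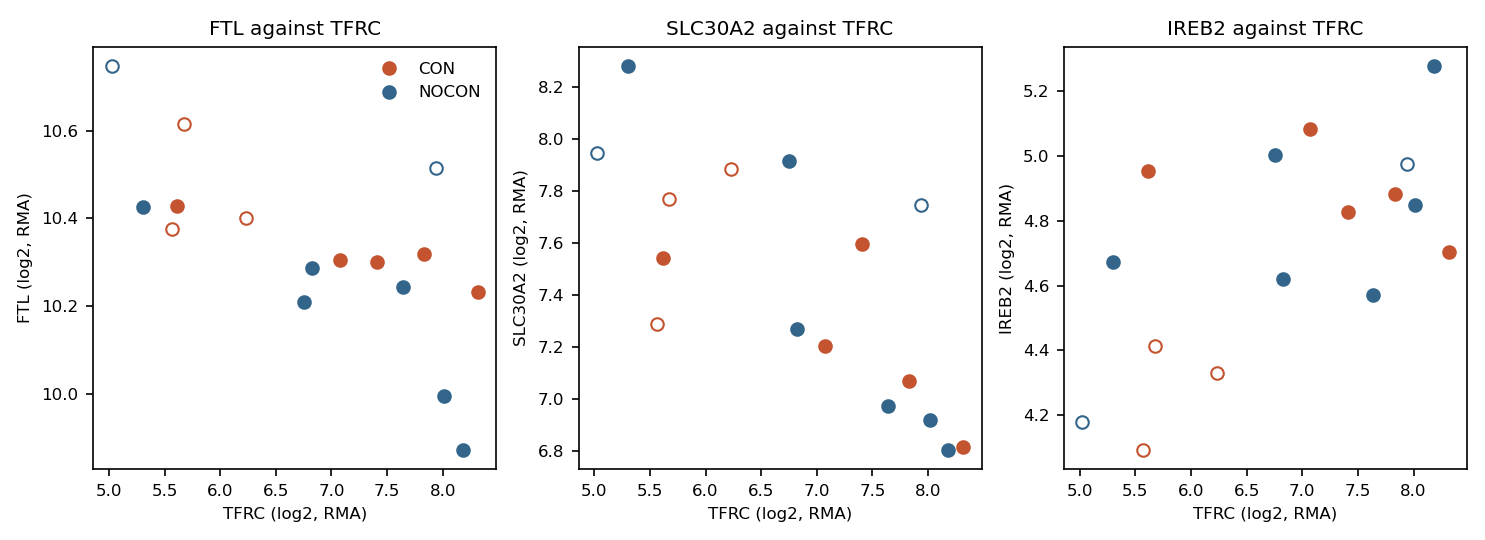
TFRC level of each biopsy (log2, horizontal axis) against the levels of FTL, SLC30A2 and IREB2 (log2, vertical axes), with CON and NOCON in separate colours and the low-correlation arrays as open points. TFRC runs opposite to FTL (r = -0.698) and SLC30A2 (r = -0.720), and with IREB2 the r of 0.619 over 16 biopsies is 0.148 over the 11 filled points.

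A further set of pairs with TFRC was chosen after the values were seen and is given as a description, with no test. Biopsies with more TFRC transcript had less FTL, with r = -0.698 and rho = -0.676 over 16 biopsies. The same sign held within CON (r = -0.780) and within NOCON (r = -0.717), without the 2 farthest biopsies (-0.605) and without the 5 low-correlation arrays (-0.696). TFRC and SLC30A2 had r = -0.720 and rho = -0.785, with -0.679 within CON, -0.787 within NOCON and -0.851 without the 5 arrays. The 5 biopsies with the lowest SLC30A2, at 6.81 to 7.07, were NOCON 3, CON 3, NOCON 7, NOCON 6 and CON 5, and their TFRC levels of 7.64 to 8.32 all lay above the TFRC median of 6.95. The 5 with the highest SLC30A2 were NOCON 4, NOCON 1, NOCON 2, CON 2 and CON 6, and their TFRC levels of 5.02 to 6.75 all lay below it. For FTL the split crossed that median. TFRC ran from 6.75 to 8.32 in the 5 biopsies with the lowest FTL and from 5.02 to 7.94 in the 5 with the highest. TFRC and FTH1 had r = 0.0899 over all biopsies, with 0.593 within CON and -0.471 within NOCON, and TFRC and SLC40A1 had r = 0.424. FTL and SLC30A2 are a pick from a wider pattern. With group means removed, the largest r of TFRC in size was with SLC30A7, at 0.83 (0.76 with 11 arrays). Next came SLC39A10 at 0.75 (0.65 with 11 arrays), ahead of SLC30A2 at -0.74 and FTL at -0.69. With 11 arrays and group means removed the order changed, and SLC30A2 at -0.85 and FTL at -0.82 were the largest in size.

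Over all 861 pairs of the 42 genes, with the mean of each feeding group removed, the median r was -0.0062 and the median size of r was 0.442. There were 48 pairs above 0.8 and 35 below -0.8, which is 9.64% of pairs. The share was 6.05% for the pairs of 1000 genes spaced evenly through the measured genes in order of symbol, so not matched on level. With the 11 arrays these became 6 and 11 pairs, or 1.97%, against 1.03%. The highest r with 16 arrays was that of ACO1 with SLC31A1 at 0.94 (0.29 with 11 arrays), followed by SLC31A1 with SLC30A5 at 0.94 (0.77), SLC30A5 with SLC39A9 at 0.93 (0.38), TF with SLC30A3 at 0.92 (0.44) and SLC39A5 with SLC39A11 at 0.91 (0.56). The lowest was that of ACO1 with SLC39A2 at -0.95 (-0.84 with 11 arrays), followed by SLC31A1 with SLC39A2 at -0.90 (-0.21), SLC31A1 with SLC30A3 at -0.89 (-0.54), ACO1 with SLC30A3 at -0.88 (-0.28) and SLC30A7 with SLC30A10 at -0.87 (-0.50). Past 0.8 in size in both sets were 5 pairs: ACO1 with SLC39A2 (-0.95 and -0.84), SLC11A2 with HMOX1 (-0.81 and -0.84), ACO1 with SLC39A14 (0.83 and 0.82), IREB2 with ATP7A (0.89 and 0.83) and MTF1 with SLC30A7 (0.86 and 0.89). These correlations share their arrays and their normalization and are a description.

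**Figure D5:**
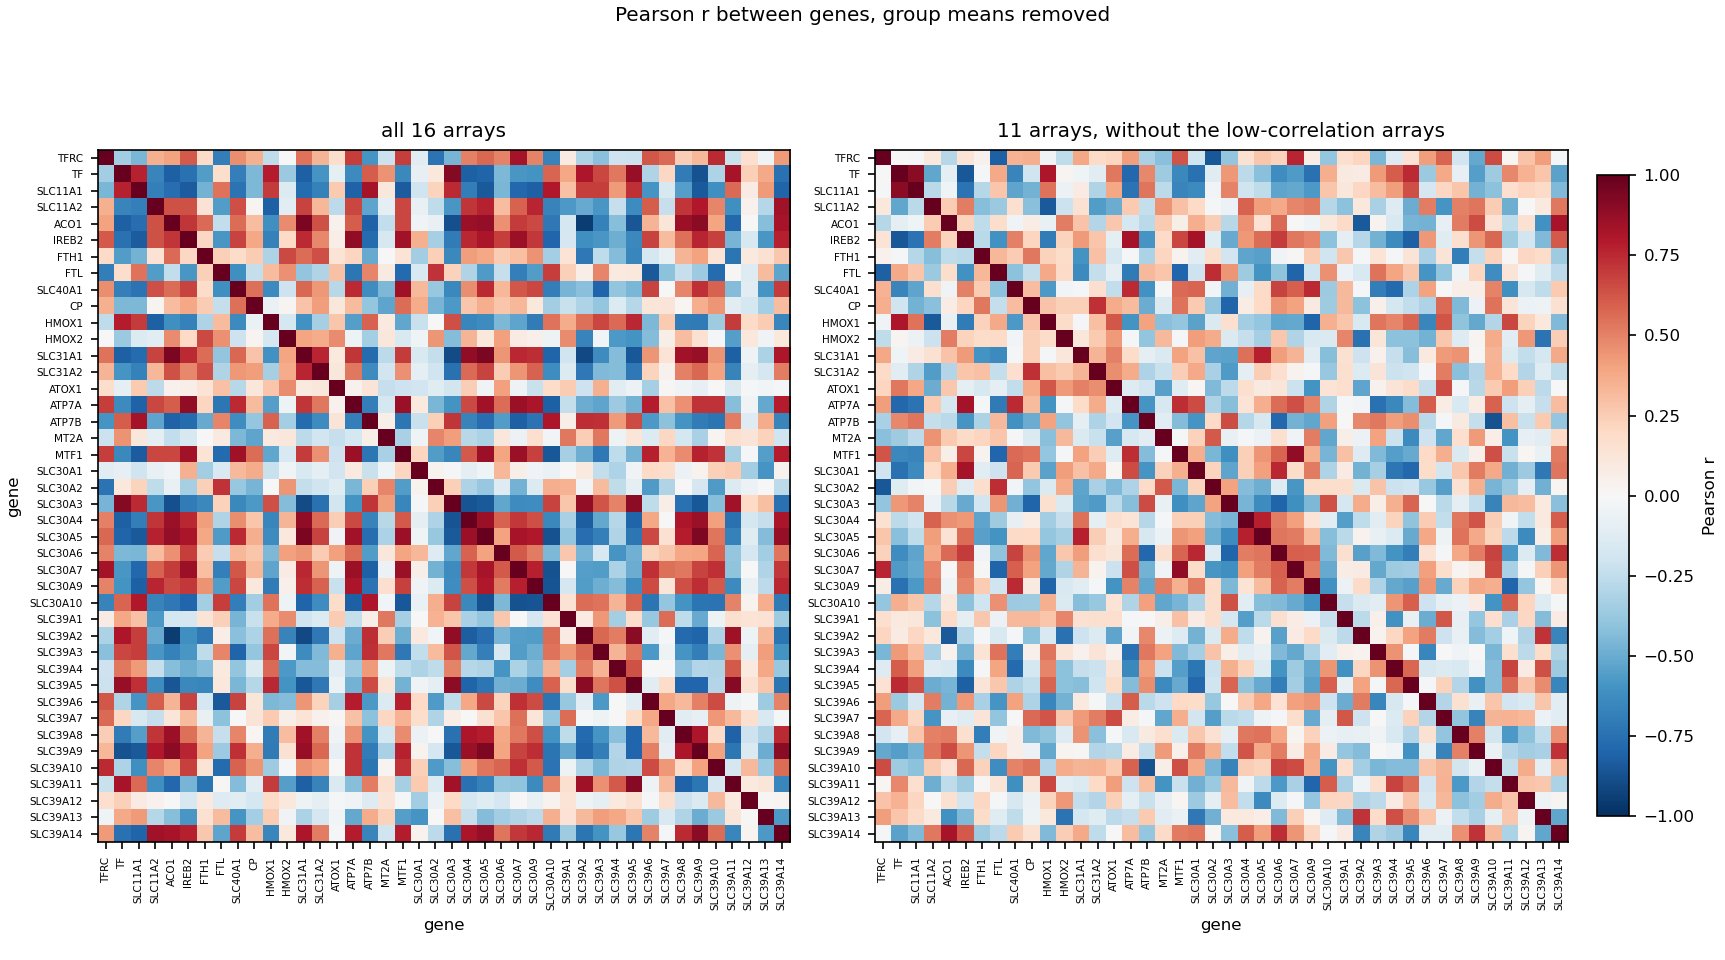
Pearson r between every pair of the 42 genes after removal of group means, with all 16 arrays on the left and the 11 arrays without the low-correlation ones on the right, colours from -1 to 1. The blocks of strong r on the left thin out on the right, where 17 pairs exceed 0.8 in size against 83.

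Levels of cell type markers were set against those of the more variable metal genes. Of 66 correlations between the 6 genes of largest SD and the mean levels of the 11 marker lists, 40 passed an adjusted p of 0.05 by Pearson's r and 16 by Spearman's rho with 16 arrays (permutation tests). By Pearson's r none passed without the 5 low-correlation arrays. How many correlations would pass for other genes was not tested, so the counts are not a trait of these 6. CON 7 was the lowest biopsy of SLC30A5, SLC30A4, SLC39A14 and SLC39A9, and it held the lowest or highest sum of several marker lists. The part of cell makeup in the spread of TFRC, SLC30A5, SLC30A4, SLC39A14, SLC39A9 and SLC40A1 was not tested beyond this.

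Further genes of metal handling outside the 42 were read from lists of heme synthesis, heme and hemoglobin handling, iron control, copper chaperones and enzymes, and zinc and metallothionein, with 68 of 73 listed genes measured. None passed the adjusted test, and at an unadjusted p under 0.05 there was 1 with a higher and 5 with a lower mean in CON, or 8.82% against 7.93% of all genes. The median difference of the 68 genes was -0.03. The one higher in mean was GPR39, a zinc-sensing receptor, with 4.48 ± 0.19 in CON and 4.16 ± 0.17 in NOCON (n = 8 each, SD), a difference of 0.33 (adjusted p = 0.375). PPOX, an enzyme near the end of heme synthesis, had 6.82 ± 0.15 in CON and 7.04 ± 0.05 in NOCON, a difference of -0.22 (adjusted p = 0.357). Among copper chaperones and enzymes 13 of 17 had the lower mean in CON, 14 with median centring or quantile normalization and 10 without the 5 arrays. Of all 18444 genes, 9429 had the lower mean in CON. That number was 10989 with median centring, 10298 with quantile normalization and 9618 without the 5 arrays. CCS, which delivers copper to superoxide dismutase, had a difference of -0.31 with all arrays and -0.13 without the 5 (adjusted p = 0.473 and 0.761), and COX17, which delivers it to cytochrome oxidase, one of -0.16 and -0.15 (adjusted p = 0.540 and 0.393). PCBP1, an iron chaperone that loads ferritin, differed by -0.24, and KEAP1, the sensor that holds back the oxidative stress factor NFE2L2, by -0.36 (adjusted p = 0.537 and 0.553), and without the 5 arrays by -0.27 and -0.17. COX17, KEAP1 and MT1A are named after their values were seen. MT1A, a metallothionein, had 7.32 ± 0.66 in CON and 6.87 ± 0.18 in NOCON (n = 8 each, SD), a difference of 0.45 (adjusted p = 0.583). Its highest value, 8.76, was that of CON 7, and without the 5 low-correlation arrays the MT1A difference was 0.10.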

How the data were processed

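RNA of mammary biopsies was hybridised to Affymetrix arrays, 1 per heifer. The values are log2 expression per probe set as deposited by the authors, made with GCOS and RMA per the submitters' processing notes. RMA corrects background, normalizes between arrays and summarises probes. The log base is not stated and was read as 2 from the range of 2.73 to 12.66 (log2). For the chip definition, any filter and the dates of scanning: not given in the sources used here. Precision is limited by the number of arrays.

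Probe sets with exactly 1 symbol were used for genes, and a gene is given by its probe set of highest mean. Of the 42 genes, 41 matched the RefSeq table of ARS-UCD2.0 by gene ID under the same symbol, and IREB2 came without an ID. CON was compared with NOCON, from the sample titles, with limma 3.58.1 (lmFit and eBayes, R 4.3.3) on all 26773 probe sets, with Benjamini-Hochberg adjustment. P-values rest on the spread between heifers, which holds that of biopsy and array. Exact two-sided permutation tests covered all 12870 regroupings, and correlations had 100000 two-sided resamples (Python 3.11.15, scipy 1.17.1). The fit was tested on simulated data.

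The genes, lists, pairs and tests were chosen with earlier results of these data known. Described in detail were the 8 genes of smallest p, the 6 of largest SD, and FTH1, FTL, TFRC, SLC40A1, MT2A, SLC30A1, SLC30A2, SLC30A4, ATP7B and CP. The 5 highest and 5 lowest correlations and the 4 further genes of smallest p were named too. Low-correlation arrays are those whose median correlation with the others falls short of the typical array's by over 5 scaled median absolute deviations. Alternatives were a filter to the brightest 60%, trend and robust eBayes, array weights, median centring, quantile normalization, a replicate block, these arrays or each array left out, the exact test, the mean of a gene's probe sets and an adjusted p of 0.10. Replicate numbers were checked for pairing: same-numbered arrays correlated in their deviations from -0.43 to 0.29, with 2 of 8 above 0.1, so the numbers were not taken to pair heifers.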

Additional observations from a re-analysis of the deposited data

Results flagged for a closer look

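Within each feeding group of 8, a value was marked when the gap between the highest or lowest biopsy and its nearest neighbour exceeded 0.526 of the group's range. This held for 20 of 84 combinations of gene and group, or 23.8%, against 21.0% over all genes and about 1 in 20 by chance. CON 7 held 11 of them, or 26.2% of the 42 genes against 24.6% of all genes, NOCON 1 held 6, or 14.3% against 11.2%, and NOCON 5, NOCON 6 and NOCON 7 held 1 each. CON 7 and NOCON 1 had a narrow interquartile range of all values, at 1.49 and 1.68. Its part in the marked values was not tested.

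In CON 7 the copper importer SLC31A1 was low at 8.26 against 9.56 to 9.95 in the other CON biopsies, and ACO1 was low at 7.94 against 9.23 to 9.94. SLC30A4 was low at 5.95, SLC30A5 at 6.32 and SLC39A8 at 9.73. The same biopsy stood high for SLC39A5 at 4.95 and SLC39A11 at 4.77, against at most 4.20 and 4.13 in the other CON biopsies. It also stood high for SLC39A2 at 4.94, SLC11A1 at 4.81, HMOX1 at 5.63 and ATP7B at 4.63.

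In NOCON 1 low values were those of ACO1 at 8.70, SLC31A1 at 9.03 and SLC30A7 at 6.64, and high ones those of ATP7B at 4.70, SLC30A10 at 4.12 and SLC39A2 at 4.22. ACO1, SLC31A1, ATP7B and SLC39A2 stood apart in the same direction in CON 7 and NOCON 1. FTH1 was low in NOCON 7 at 9.56 against 9.73 to 9.87 in the other NOCON biopsies. SLC39A1 was high in NOCON 5 at 6.03, and SLC39A12 in NOCON 6 at 4.06.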

How the results depend on the processing

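No gene of the 42 passed the adjusted threshold under any alternative, and the lowest adjusted p among the 20 genes described in detail was 0.0734, for FTH1 with array weights. Over all probe sets 16 passed, against 67 with array weights, 0 by the exact test, 35 at an adjusted p of 0.10 and 16 to 20 with 1 array left out. The exact test could hardly call any probe set after adjustment, because of the smallest p it can give. With the replicate block 4 passed. At an unadjusted p under 0.05, the 1 of 42 genes became 7 with array weights (16.7%, against 11.7% of all genes), 0 with median centring (9.30% of all genes), 3 with quantile normalization (7.14%, against 9.14%), 8 without the low-correlation arrays (19.0%, against 8.37%), and 1 to 3 with 1 array left out. The median difference of the 42 genes lay between -0.0022 and 0.04 under the other alternatives and between -0.0072 and 0.04 with 1 array left out, so its sign is not settled, and higher means in CON numbered 20 to 27. Median centring lowered all differences by 0.02 and turned the sign of 4 genes, CP, HMOX1, SLC39A1 and SLC39A10. Quantile normalization turned 4 as well, CP, HMOX2, SLC30A2 and SLC39A10. Of the 23 pairs, 9 passed with all arrays, 0 without the low-correlation arrays and 1 to 10 with 1 array left out. The correlation of SLC31A1 with SLC31A2 turned to -0.052 without those arrays (adjusted p = 0.989). The cause of these changes was not tested. Of the 20 genes described in detail, 8 changed sign under some alternative. Without scanner files, signal over background could not be judged for the 11 dim genes.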
